A study of Mus musculus with 28 samples.

Results

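Accessible chromatin was examined at 46 genes that carry glucose into the cell, break it down, store it or relay the insulin signal, in purified Müller cells of control and db/db mice. The genes were chosen by name for their known function, and all 46 were found among the 21911 protein-coding genes of the annotation. They comprised 6 genes of glucose entry and lactate transport, 22 of glycolysis and its branches, 3 of glycogen metabolism, 2 of the polyol path and 13 of insulin signalling. Müller cells, the main glia of the retina, had been sorted magnetically as the CD29-positive cells after removal of CD11b-positive and CD31-positive cells, a fraction in which some astrocytes are expected and photoreceptor carry-over cannot be avoided. Both genotypes were 6 months old and on the BKS background. The db/db mice are homozygous for a loss-of-function allele of the leptin receptor, which they carry in every cell of the body and which makes the animals obese and diabetic, and the controls were labelled WT. The study's methods name both wild-type and heterozygous db/+ animals as controls and do not say which served here. ATAC-seq had been done on 2 biological replicates per genotype, and 1 list of accessible regions per genotype, attached to replicate 1, was analysed here. A single list stands for each genotype, so replicate error is unknown, no test between genotypes was made, and every difference below compares these 2 lists. Replicate 2 of either genotype and the RNA-seq samples of the series were not analysed here.

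Glucose enters cells through facilitative transporters and is trapped by hexokinase, the first enzyme of glycolysis. Müller cells are known as glycolytic glia that release lactate, which retinal neurons can use as a fuel, and that hold the glycogen of the retina. Insulin and insulin-like growth factor 1 bind related receptor kinases, whose adaptor proteins recruit phosphoinositide 3-kinase. The kinase AKT then acts on glycogen synthase kinase 3, on mTOR and on the FOXO transcription factors, which AKT keeps out of the nucleus. The polyol path turns surplus glucose into sorbitol and fructose and is a classical route of glucose toxicity in the diabetic retina.

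After overlapping rows had been merged, the control list held 46189 regions and the db/db list 64883. Of all regions, 4.16% of those in the control list had no overlapping partner in the db/db list, and 31.3% of those in the db/db list had none in the control list. The value of a region, called signal here, is read as its fold enrichment over background at the summit, although the peak caller is not given. Because the median signal differed between lists (10.6 in control and 8.60 in db/db), each region was ranked by the percentile of its signal within its own list, where 100 is the strongest region. The 43519 regions with a single partner in each list stood 8.53 points higher in db/db at the median, since the db/db list holds many more weak regions. A second scale, called shared rank, is therefore given beside it: the percentile among those 43519 regions alone, on which the median difference over all of them was 0.087 points.

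Cell type markers were read the same way. All 8 Müller cell markers had an accessible promoter in both lists. Of their 28 control regions 0 lacked a partner in db/db (up to 12.1%), an interval that includes the 4.16% of all regions. Of the 8 rod photoreceptor markers, 8 had an accessible promoter in the control list and 6 in the db/db list, and 11 of their 26 control regions (42.3%, Wilson 95% interval 25.5 to 61.1) had no partner in db/db. Fewer rods among the sorted cells and less accessible rod chromatin cannot be told apart in such bulk samples. Markers of microglia and endothelium were mostly closed at their promoters, with 1 of 5 and 1 of 4 accessible in each list. Of their control regions, 0 of 14 at microglial markers (up to 21.5%) and 0 of 8 at endothelial markers (up to 32.4%) lacked a partner in db/db. Both intervals include the 4.16% of all regions. Of the other sets, 3 of 4 bipolar, 2 of 3 pericyte and 2 of 3 astrocyte markers had an accessible promoter in each list. Of 4 cone markers, 2 had one in control and 1 in db/db. The part of other cell types in the differences below was not tested.

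The promoters of members on which the results turn are shown first, as their RefSeq sequence on build GRCm38.p6. Each line gives the bases before a start site that no annotated exon covers, read 5′ to 3′, and all of the printed bases lie inside an accessible region of both lists. Capitals mark matches, on either strand, to 8 searched strings: the hypoxia response core ACGTG, the E-box CACGTG that contains it, the FOXO string GTAAACA, the GC box GGGCGG, the CCAAT box CCAAT, the TATA box TATAAA, the CRE TGACGTCA and the photoreceptor string GGATTA. Slc2a1 (chr4:119108495-119108710, plus strand) and Eno1 (chr4:150236458-150236707, plus strand) had the largest positive differences in shared rank. Pdk2 (chr11:95041372-95041621, minus strand) and Irs2 (chr8:11008930-11009179, minus strand) had the largest negative ones. Both rankings take 1 region a gene, the strongest at its promoters, and only genes in which it was the same region in both lists. Txnip (chr3:96557707-96557956, plus strand) encodes a protein that restrains glucose uptake, and Foxo1 (chr3:52268087-52268335, plus strand) had the largest share of regions found in 1 list only.
Slc2a1: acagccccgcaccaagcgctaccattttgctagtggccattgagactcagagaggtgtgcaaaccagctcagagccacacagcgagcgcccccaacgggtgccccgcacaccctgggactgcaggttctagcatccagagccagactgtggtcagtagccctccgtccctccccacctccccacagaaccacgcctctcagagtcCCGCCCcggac
Eno1: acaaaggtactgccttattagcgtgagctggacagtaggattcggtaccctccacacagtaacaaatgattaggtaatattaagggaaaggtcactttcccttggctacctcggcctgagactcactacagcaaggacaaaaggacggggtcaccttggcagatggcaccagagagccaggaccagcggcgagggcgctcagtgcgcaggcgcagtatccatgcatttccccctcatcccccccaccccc
Pdk2: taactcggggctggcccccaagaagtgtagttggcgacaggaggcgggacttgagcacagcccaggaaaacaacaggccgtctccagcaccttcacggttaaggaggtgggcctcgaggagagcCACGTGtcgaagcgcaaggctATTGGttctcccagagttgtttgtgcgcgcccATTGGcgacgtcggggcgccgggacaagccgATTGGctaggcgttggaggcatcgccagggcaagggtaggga
Irs2: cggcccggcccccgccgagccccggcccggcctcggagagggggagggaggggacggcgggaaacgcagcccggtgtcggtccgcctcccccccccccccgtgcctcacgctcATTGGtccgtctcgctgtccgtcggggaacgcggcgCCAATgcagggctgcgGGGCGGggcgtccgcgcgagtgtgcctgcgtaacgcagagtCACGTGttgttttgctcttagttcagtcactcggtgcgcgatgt
Txnip: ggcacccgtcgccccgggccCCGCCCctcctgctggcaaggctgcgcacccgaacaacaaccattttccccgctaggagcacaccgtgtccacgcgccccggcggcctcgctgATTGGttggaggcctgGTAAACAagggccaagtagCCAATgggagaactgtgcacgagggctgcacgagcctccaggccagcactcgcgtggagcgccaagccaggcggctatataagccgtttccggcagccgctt
Foxo1: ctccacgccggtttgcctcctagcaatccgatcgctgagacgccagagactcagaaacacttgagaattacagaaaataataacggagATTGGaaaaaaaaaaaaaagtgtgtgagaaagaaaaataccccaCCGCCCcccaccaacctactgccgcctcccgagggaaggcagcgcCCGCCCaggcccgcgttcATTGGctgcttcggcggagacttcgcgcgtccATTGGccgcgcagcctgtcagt
The printed Slc2a1 stretch held 1 GC box and the Eno1 stretch none of the 8 strings, whereas Pdk2 and Irs2 each held an E-box beside CCAAT boxes. These counts depend on the stretch printed. With its exon-covered bases included, the Slc2a1 stretch held 1 hypoxia response core and 2 GC boxes. Stretches before other Eno1 start sites held 2 or 3 GC boxes and 2 CCAAT boxes. That before another Pdk2 start site held none of the 8 strings. No E-box was found in any of these Slc2a1 and Eno1 stretches. Among other members, an E-box lay before a start site of Irs1, which stood higher in shared rank, and of Slc16a1 and Pfkfb2, which stood lower. A link of this string with direction was not tested. The start site of the printed Eno1 stretch lay 409 bp before the control summit. The Txnip stretch held the FOXO string once. A match describes the letters in these windows and says nothing of a factor being bound.

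RefSeq windows of 300 bases, from 250 before to 50 after a start site, were found for 42 of the 46 genes, 62 windows in all. The 4 genes without one were Slc2a3, Slc2a4, Insr and Akr1b3. Their median GC content was 61.3%, near the 62% of the 13377 windows genome-wide that overlapped a control region and above the 52.7% of all 32851 windows. The hypoxia response core ACGTG lay within the 250 bases before the start in 24 of 62 member windows (38.7%), against 16.6% of all windows and 22.2% of those that overlapped a control region. At the level of genes, 20 of 42 had it in any window, 10 of them among the 22 glycolysis genes. The share of genes was not taken over all genes, so these counts have no background beside them. The 22 glycolysis genes had 37 windows, and a gene with several can count through any of them. The 2 Ldha windows differed, with 5 matches in one and 0 in the other. Each E-box holds the core on both strands and counts as 2 matches, and the Ldha window with 5 matches held 2 E-boxes. The E-box was found in 12.9% of member windows, 6.02% of all windows and 8.57% of those in control regions. The GC box was in 51.6% of member windows, 32.7% of all windows and 61.2% of those in control regions. The CCAAT box was in 30.7% of member windows, 33.9% of all and 35.4% of those in control regions. The TATA box was in 4.84%, 12.4% and 5.55%, and the photoreceptor string GGATTA in 4.84%, 6.25% and 4.78%, in the same order. The FOXO string GTAAACA was found in 2 member windows, those of Txnip and Akt1 (3.23%, against 3.17% and 1.96%), and the CRE in 1, that of Ldha (1.61%, against 1.55% and 2.84%). Windows of one gene can overlap, so these shares are descriptions of the windows and not of independent genes.

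All 46 genes had an accessible promoter in both lists, meaning a region whose summit lay within 1 kb of an annotated start site. Among all coding genes 58.5% did in the control list and 61.6% in the db/db list. The median percentile of the strongest promoter region was 73.9 for the members in control and 78.6 in db/db. Over all coding genes with an accessible promoter it was 78.2 and 80.7. The members spanned nearly the whole range: the strongest was Pdk1, a kinase that blocks pyruvate dehydrogenase, at 97.6 in control and 98.7 in db/db, and the weakest was Akt1, a central kinase of the insulin signal, at 6.47 and 18.6.

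The promoter percentile was at least 10 points higher in db/db for 16 of the 46 members (34.8%, Wilson 95% interval 22.7 to 49.2), against 24.3% of coding genes, and at least 10 points lower for 0 of 46 (up to 7.71%), against 1.77% of coding genes. In 9 members (19.6%, 10.7 to 33.2) it was lower by any amount, against 24.4% of coding genes. On shared ranks, which could be given for the 40 members whose strongest promoter region was the same one in both lists, 2 stood at least 10 points higher (Slc2a1 and Eno1), which is 5% (1.38 to 16.5) against 5.44% of coding genes, and 7 at least 10 points lower, which is 17.5% (8.75 to 32.0) against 13.2%. The median difference in shared rank was -2.64 points for these members and -1.25 points for all coding promoters. Each interval given here for a share of the members includes the share over coding genes.

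**Figure D1:**
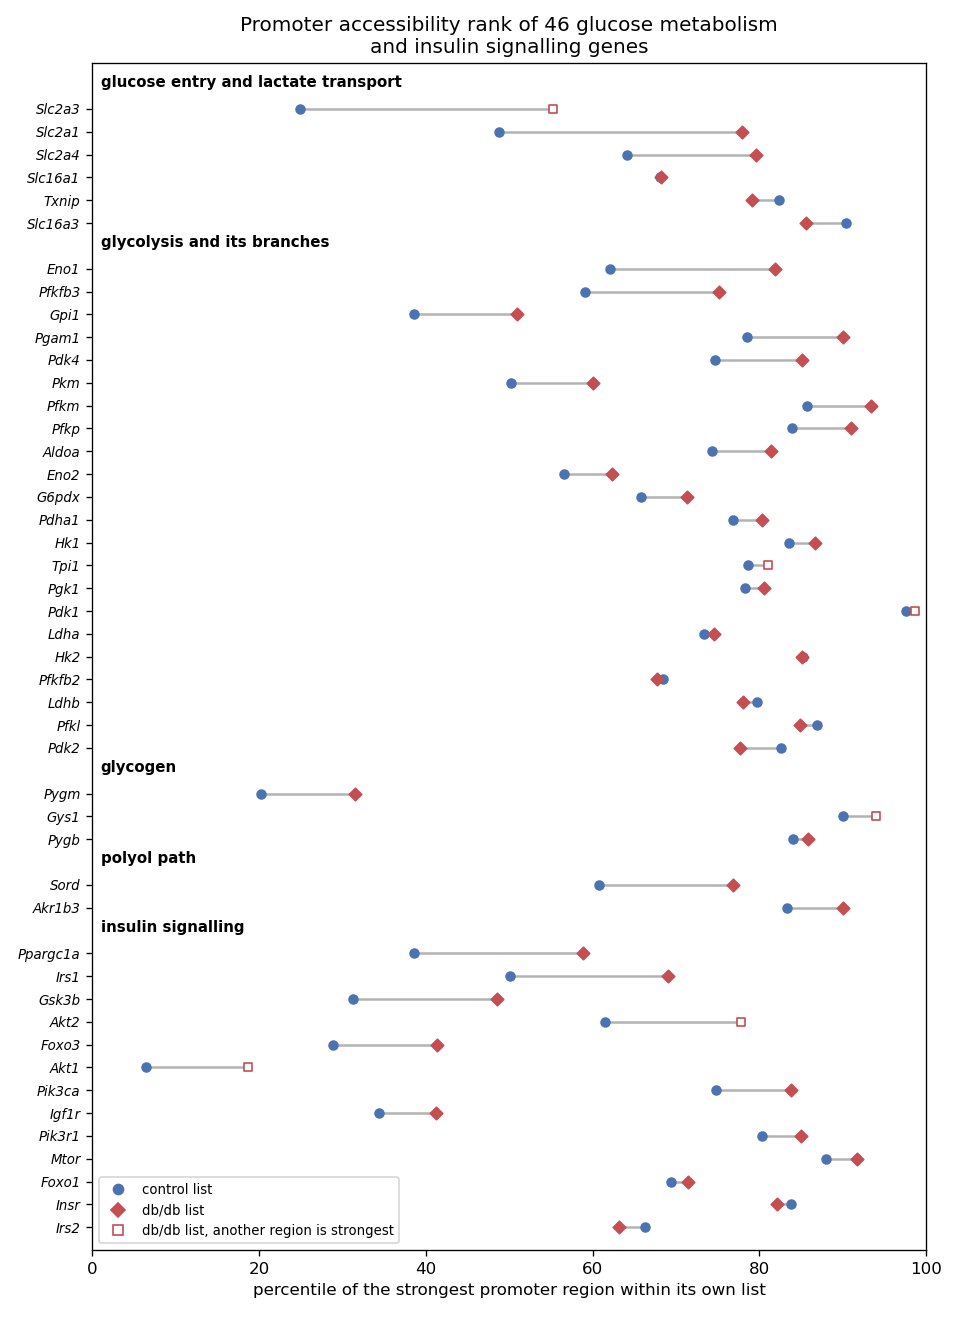
Percentile of the strongest promoter region of each of the 46 genes (horizontal axis, 0 to 100) in the control list (circles) and the db/db list (diamonds), by group; open squares mark genes whose strongest region in db/db is another region. The longest lines are those of Slc2a3 (24.9 to 55.3) and Slc2a1 (48.7 to 77.9), and 9 genes, among them Pdk2 and Slc16a3, stand lower in db/db.

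By percentile the 2 largest promoter differences of the 46 were at glucose transporters, but that of Slc2a3 set 2 different regions against each other. In shared rank the strongest control promoter region of Akt2 differed more than that of either, by -27.2 points. The promoter of Slc2a1, which encodes GLUT1, the main glucose transporter of glia and of the blood-retina barrier, had a signal of 10.5 in control and 13.1 in db/db at chr4:119108439-119109405. Its percentile was 48.7 in control and 77.9 in db/db, a difference of 29.2 points, and its shared rank was 21.2 points higher in db/db. Ranked by the −log10 p-value in place of the signal, the difference was 4.43 points, under the step of 10. Among 892 other coding promoters of like percentile in control, 2.24% stood at least as much higher. Slc2a1, like Eno1, Pdk2 and Irs2 below, was picked as an extreme of the 46, so such a share describes it and gives no further support. All 7 regions at Slc2a1 were found in both lists. An intronic region 12753 bp from the gene start was also higher, at 21.9 in control and 47.8 in db/db, which was 10.3 points in shared rank, and the remaining 5 differed by -4.09 to 6.96 points in shared rank.

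Slc2a3 encodes GLUT3, the glucose transporter typical of neurons. Its strongest promoter region had a percentile of 24.9 in control and 55.3 in db/db, but these were different regions. The control one lay at an internal start site 59099 bp into the annotated gene and had a shared rank 1.01 points lower in db/db. The db/db one, chr6:122801210-122802264, had its summit 24 bp from the first annotated start site and was absent from the control list. The strongest region of Slc2a3 in both lists was intronic, at chr6:122795030-122795906, with percentiles of 91.5 and 96.2. With the db/db list shortened to the length of the control list, the promoter difference of Slc2a3 was 12.3 points. Slc2a4, the insulin-responsive transporter GLUT4, had a single region, its promoter, at 64.1 in control and 79.6 in db/db, 7.72 points higher in shared rank.

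The lactate transporters among the members stood the other way in shared rank. The promoter of Slc16a3, which encodes the lactate exporter MCT4 of glycolytic cells, was at 90.4 in control and 85.6 in db/db, 11.1 points lower in shared rank. That of Slc16a1, the lactate transporter MCT1, had nearly the same percentile in both lists (68.2 in each), which was 12.2 points lower in shared rank. Of promoters of like control percentile, 5.97% stood as low as Slc16a3 or lower and 20.04% as low as Slc16a1 or lower. Slc16a7, a lactate transporter outside the members, was at 47.7 and 71.7, 13.55 points higher in shared rank. Txnip, the arrestin-family protein that glucose itself induces and that removes GLUT1 from the cell surface, was at 82.3 and 79.1, 11.9 points lower in shared rank, with signals of 16.3 and 13.4. Of 2220 promoters of like control percentile, 11.8% stood as low or lower. Over the group, 3 of 5 promoters with one region in both lists were at least 10 points lower in shared rank (60%, 23.1 to 88.2, against 13.2% of coding genes) and 1 was at least 10 points higher (20%, 3.62 to 62.5, against 5.44%).

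**Figure D2:**
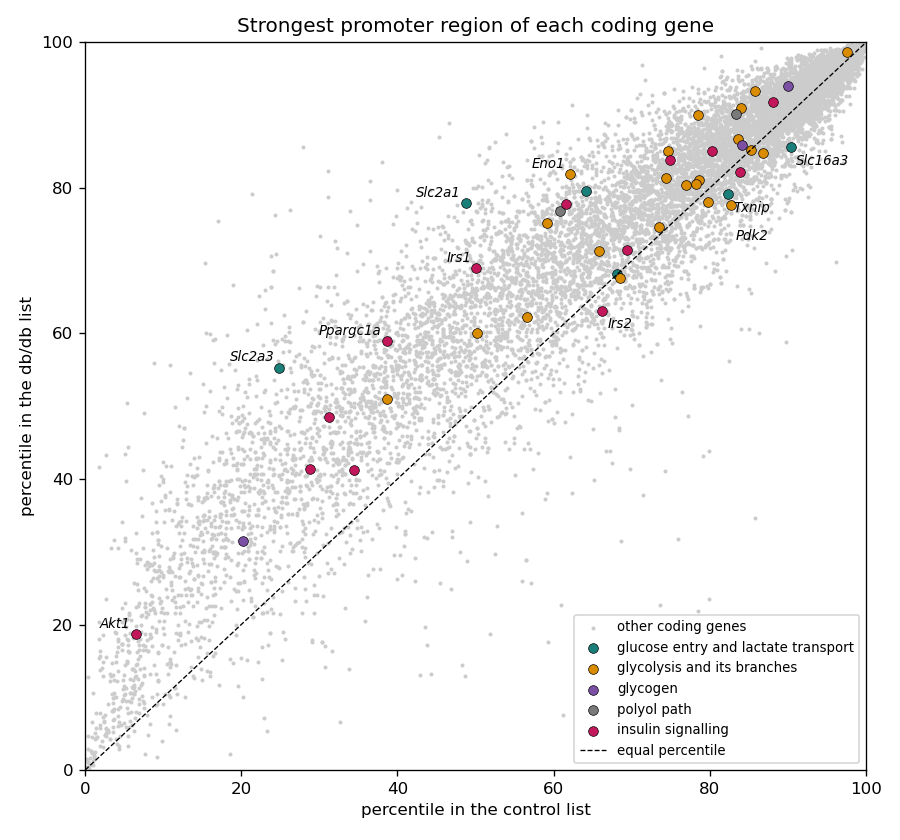
Percentile of the strongest promoter region in the control list (horizontal) and in the db/db list (vertical) for coding genes with an accessible promoter in both lists (grey) and the 46 members (coloured by group); the dashed line marks equal percentiles. Slc2a1, Slc2a3 and Eno1 lie near the upper edge of the cloud and Slc16a3, Pdk2, Txnip and Irs2 below the dashed line.

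The 22 genes of glycolysis and its branches had a median promoter percentile of 77.6 in control and 80.8 in db/db. In 5 of 22 (22.7%, 10.1 to 43.4) the percentile was at least 10 points higher, near the 24.3% of coding genes. On shared ranks 1 of 20 stood at least 10 points higher (5%, against 5.44%) and 3 at least 10 points lower (15%, against 13.2%), with a median of -4.24 points. The enzymes of the main path ranged in control from 38.6 (Gpi1) to 86.9 (Pfkl). Between these, Aldoa (aldolase) was at 74.4 and 81.4, Tpi1 (triosephosphate isomerase) at 78.6 and 81.1, Pgk1 (phosphoglycerate kinase) at 78.3 and 80.5 and Ldha (lactate dehydrogenase A, which makes lactate from pyruvate) at 73.4 and 74.6. Pgam1, phosphoglycerate mutase, was higher at 78.5 and 90.02, a difference in shared rank of 7.89 points.

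Eno1, the common form of enolase, had the second largest positive difference in shared rank among strongest promoter regions, while single regions of other members, given below, were higher still. Its signal was 12.3 in control and 14 in db/db, its percentile 62.1 and 81.9, and its shared rank 13.1 points higher in db/db. Ranked by the −log10 p-value, the difference was 1.95 points. Of 1196 promoters of like control percentile, 6.10% stood at least as much higher. Eno2, the neuronal enolase, did not follow it: it was at 56.6 and 62.3, which was 7.69 points lower in shared rank. Gpi1, which converts glucose 6-phosphate to fructose 6-phosphate, had a promoter at 38.6 and 51.0 (2.70 points lower in shared rank), while a region 3799 bp upstream of it, at chr7:34233705-34234585, was at 37.6 and 69.8, 21.3 points higher in shared rank.

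Hexokinase and the last enzyme, pyruvate kinase, each held an internal promoter region that differed strongly. Hk1 held the most regions of its group, 9 in control and 12 in db/db, and 3 of them were promoter regions in each list. The strongest, 39644 bp into the annotated gene, was at 83.6 in control and 86.7 in db/db, and one 4699 bp in was at 16.8 and 48.8, 16.2 points higher in shared rank. The third, 52092 bp in, was at 53.9 and 28.3, with a signal of 11.1 in control and 6.39 in db/db. That difference of -38.2 points in shared rank was the largest in either direction among all 152 regions of the members with a single partner. Pkm had its main promoter at 50.2 and 60.1 and a second one 8786 bp in at 19.4 and 54.8, 20.3 points higher in shared rank. Hk2, the hexokinase inducible by insulin in muscle and fat, was at 85.3 and 85.2.

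Regulators of the path split. Pfkfb3, whose product makes the activator of phosphofructokinase, had a promoter at 59.1 and 75.2 (6.77 points higher in shared rank), an intronic region at 97.6 and 97.7 that was among the strongest of all members, and another at 76.2 and 90.9, 11.6 points higher in shared rank. Pfkfb2, a related enzyme that insulin activates in heart, had its promoter at 68.5 and 67.7, which was 13.1 points lower in shared rank. That region is also a promoter region of Gm29427. Of the phosphofructokinase genes, Pfkm was at 85.7 and 93.4, Pfkp at 83.9 and 91.0, and Pfkl, the liver form, at 86.9 and 84.9, 8.41 points lower in shared rank. Among the kinases that block pyruvate dehydrogenase, Pdk4 was at 74.7 and 85.1, and Pdk2 at 82.7 and 77.6. The Pdk2 difference, -5.03 points, was the lowest of the 46 promoters and was 14.3 points lower in shared rank, with signals of 16.4 and 13.0. Of 2255 promoters of like control percentile, 7.76% stood as low or lower. Ldhb, which favours pyruvate, was 10.7 points lower in shared rank, and Pdha1 and G6pdx, a pyruvate dehydrogenase subunit and the entry enzyme of the pentose phosphate path, were 4.45 and 5.65 points lower.

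Glycogen and polyol genes were few. Pygb, the brain form of glycogen phosphorylase, had a promoter at 84.1 and 85.9, and its intronic region 21917 bp in was at 36.6 and 61.8, 11.8 points higher in shared rank. Pygm, the muscle form, was weak at 20.2 and 31.5. Gys1, glycogen synthase, held 2 promoter regions in control that crossed. The one at the first start site was at 90.03 and 86.04 (10.01 points lower in shared rank) and one 16670 bp in was at 83.9 and 94.1 (8.18 points higher), so that a different region was strongest in each list. The region at the first start site is also a promoter region of Ruvbl2. Akr1b3, aldose reductase, was at 83.3 and 90.1, and Sord, sorbitol dehydrogenase, at 60.8 and 76.8. In the polyol path all 3 regions were found in both lists and stood 2.97 to 7.26 points higher in shared rank, the group being too small to say more.

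**Figure D3:**
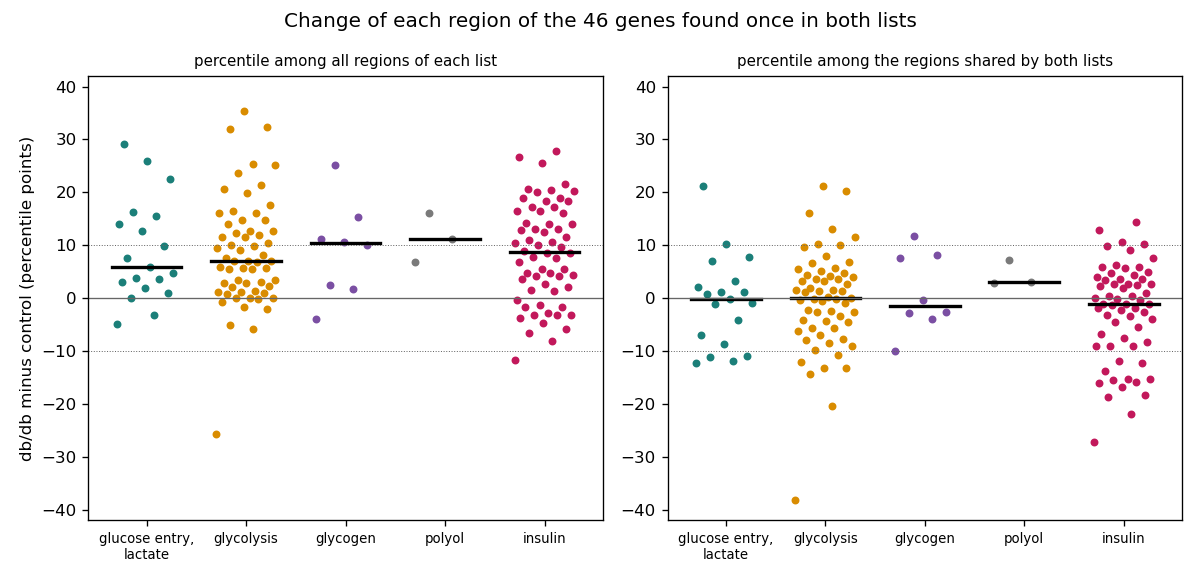
Difference in percentile, db/db minus control, of each of the 152 member regions with a single partner, by group, among all regions of each list (left) and among the regions shared by both lists (right); black lines are medians and dotted lines mark 10 points. The medians lie above 0 on the left and, apart from the polyol path at 3.11, between -1.40 and 0.12 on the right.

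Insulin signalling genes had weaker promoters, with a median percentile of 61.6 in control and 69.0 in db/db, and 6 of 13 were at least 10 points higher in db/db (46.2%, 23.2 to 70.9), an interval that includes the 24.3% of coding genes. On shared ranks 0 of 11 were at least 10 points higher (up to 25.9%) and 1 was at least 10 points lower (9.09%, 1.62 to 37.7), and both intervals include the shares over coding genes. Among the receptors, Insr, the insulin receptor, was at 83.8 and 82.1, 9.12 points lower in shared rank. For Igf1r, the insulin-like growth factor 1 receptor, the region counted as its promoter lay at an internal start site 195939 bp into the gene, at 34.4 and 41.2. The broad region upstream of its first start site had its summit 1019 bp away, just outside the promoter window, and was at 26.6 and 30.8, 9.01 points lower in shared rank.

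The adaptors parted. Irs1, insulin receptor substrate 1, had signals of 10.6 and 11.3, percentiles of 50.1 and 69.0, and a shared rank 7.52 points higher in db/db, at chr1:82290655-82291922. By −log10 p-value it was 3.68 points higher. Irs2, the other main substrate, had signals of 12.9 and 10.4, percentiles of 66.3 and 63.1, and a shared rank 16.7 points lower, at chr8:11008486-11009898. Of 1262 promoters of like control percentile, 9.27% stood as low as Irs2 or lower, and for Irs1 19.04% of 898 stood at least as much higher. The subunits of phosphoinositide 3-kinase differed less, Pik3ca at 74.9 and 83.8 (2.70 points higher in shared rank) and Pik3r1 at 80.3 and 85.0 (1.28 points lower).

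Akt2, the isoform that serves glucose uptake, held 4 promoter regions and did not move as one. The region at its first start site, strongest in control, was at 61.6 and 49.9, with signals of 12.2 and 8.59, and was 27.2 points lower in shared rank. Regions 5391 and 16196 bp into the gene were at 33.9 and 61.7 and at 58.9 and 77.8, 14.4 and 10.6 points higher in shared rank, so that the last was the strongest in db/db. Intronic regions 22617 and 29676 bp in were again lower, by 18.4 and 21.9 points. No control region overlapped either of the 2 RefSeq windows of Akt1, while a db/db region overlapped 1 of them, and its strongest promoter regions had percentiles below 20 in both lists.

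Downstream of AKT, Gsk3b (glycogen synthase kinase 3) was at 31.3 and 48.5, Foxo3 at 28.8 and 41.3, and Mtor, the nutrient-sensing kinase, at 88.0 and 91.8. The shared ranks of these 3 promoters differed by 1.97, -2.59 and 0.43 points. Ppargc1a, a coactivator that drives mitochondrial genes, was at 38.6 and 58.9, 6.31 points higher in shared rank and 3.66 points higher in percentile with lists of equal length, at a start site 13807 bp into the gene. The promoter of Foxo1 was at 69.4 and 71.5, with signals of 13.5 and 11.8, which was 9.09 points lower in shared rank.

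Around the 46 genes, within the gene or 5 kb to each side, lay 169 regions of the control list and 227 of the db/db list. Of the control regions 11 (6.51%, Wilson 95% interval 3.67 to 11.3, counting error only) lacked a db/db partner, each at a different gene, and coding genes with the same numbers of regions would average 6.79. Of the db/db regions 64 (28.2%, 22.7 to 34.4) lacked a control partner, at 21 genes, against an average of 69.4 for coding genes with equal numbers. Both intervals include the share over all regions, 4.16% for the control list and 31.3% for the db/db list. Regions of one gene share their locus, so the intervals treat as independent what may not be. At 21 genes the db/db list held more regions, at 3 fewer, and at 22 the same number. The db/db list is the longer one genome-wide, and these counts were not taken over all coding genes.

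Of the 152 control regions at members with a single partner, 66 (43.4%) were at least 10 points higher in percentile, against 44.6% of all such regions, and 2 (1.32%) were at least 10 points lower, against 2.3% of all. The median difference was 7.996 points (95% interval from order statistics 5.75 to 10.4), near the 8.53 of all regions. On shared ranks 13 (8.55%, 5.07 to 14.1) were at least 10 points higher, against 13.3% of all regions, and 25 (16.4%, 11.4 to 23.2) at least 10 points lower, against 12.8%, with a median of -0.16 (-1.28 to 1.30). Of the 25 lower regions, 13 were among the 62 at insulin signalling genes (20.97%, 12.7 to 32.6), whose median was -1.05, and 7 among the 60 at glycolysis genes (11.7%, 5.77 to 22.2), whose median was 0.12. Both intervals include the 12.8% of all regions.

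**Figure D4:**
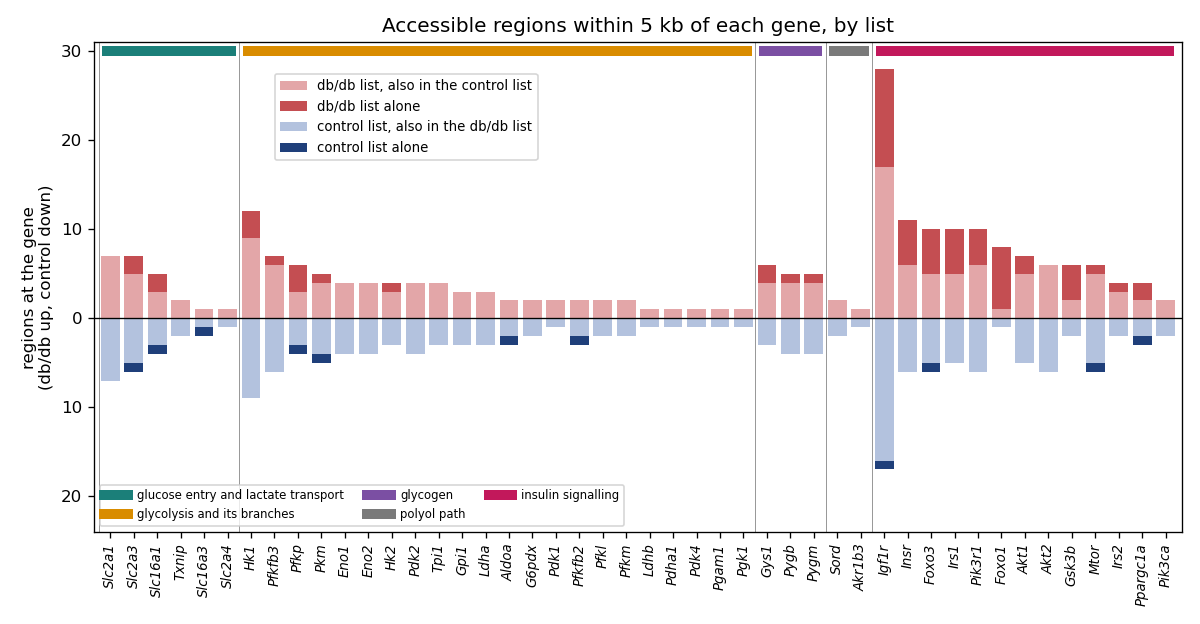
Number of accessible regions within 5 kb of each member gene in the db/db list (upward) and the control list (downward), with regions found in one list alone in dark colours. Igf1r has the most in both lists (28 and 17), and Foxo1 has 8 in db/db, 7 of them dark, and 1 in control.

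Where the db/db list held additional regions differed by group. At insulin signalling genes 47 of 112 db/db regions (41.96%, 33.2 to 51.2) lacked a control partner, and at glycolysis genes 9 of 73 (12.3%, 6.62 to 21.8). The interval of the first lies above and that of the second below the 31.3% of all regions and the 29.1% of regions at all coding genes. Coding genes with equal numbers of regions average 37.5 and 19.97. The 34 other insulin signalling genes had 43 of 130 (33.1%, 25.6 to 41.5), near the share of all regions, and the 30 other glycolysis genes had 16 of 74 (21.6%, 13.8 to 32.3). Outside promoters the shares were 44 of 88 (50.0%, 39.8 to 60.2) and 8 of 34 (23.5%, 12.4 to 40), against 38.2% of the regions outside promoters at all coding genes. The first of these 2 intervals lies above that share and the second includes it. Of the 47 regions, 11 were at Igf1r and 7 at Foxo1, and these intervals treat regions of one gene as independent. The insulin signalling genes are long, with a median length of 87.7 kb against 18.7 kb for the glycolysis genes and 17.4 kb for all coding genes. The regions found in db/db alone were weak, with a median percentile of 12.3 at the members and 23.5 over the whole list. When the db/db list was shortened to its strongest regions by p-value, to the length of the control list, 7.69% of the db/db regions at insulin signalling genes and 7.46% of those at glycolysis genes lacked a control partner.

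Foxo1, the transcription factor that insulin silences, was the clearest single case. It had 1 region in control, its promoter, and 8 in db/db, so that 7 of its 8 db/db regions had no partner. Among 236 other coding genes with 8 db/db regions, 0 had as many. Foxo1 was singled out by that same share, so its place among these genes describes it and gives no further support. These 7 regions had percentiles of 3.99 to 25.8, the strongest in the first intron at chr3:52322451-52323481, 54845 bp from the gene start. Once the db/db list was shortened to equal length, 1 of the 2 regions remaining at Foxo1 had no partner.

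At Gsk3b 4 of 6 db/db regions had no partner (7.27% of 468 genes with equal numbers had as many). At Insr 5 of 11, at Irs1 5 of 10, at Foxo3 5 of 10, at Pik3r1 4 of 10 and at Igf1r 11 of 28 had none, and between 21.4% and 48.6% of the coding genes with equal numbers had as many. With lists of equal length these 6 genes had 0 such regions, apart from 2 at Igf1r. Igf1r was the member with the most regions, and its strongest one, intronic and 220204 bp from the start, was at 82.7 in control and 90.6 in db/db.

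**Figure D5:**
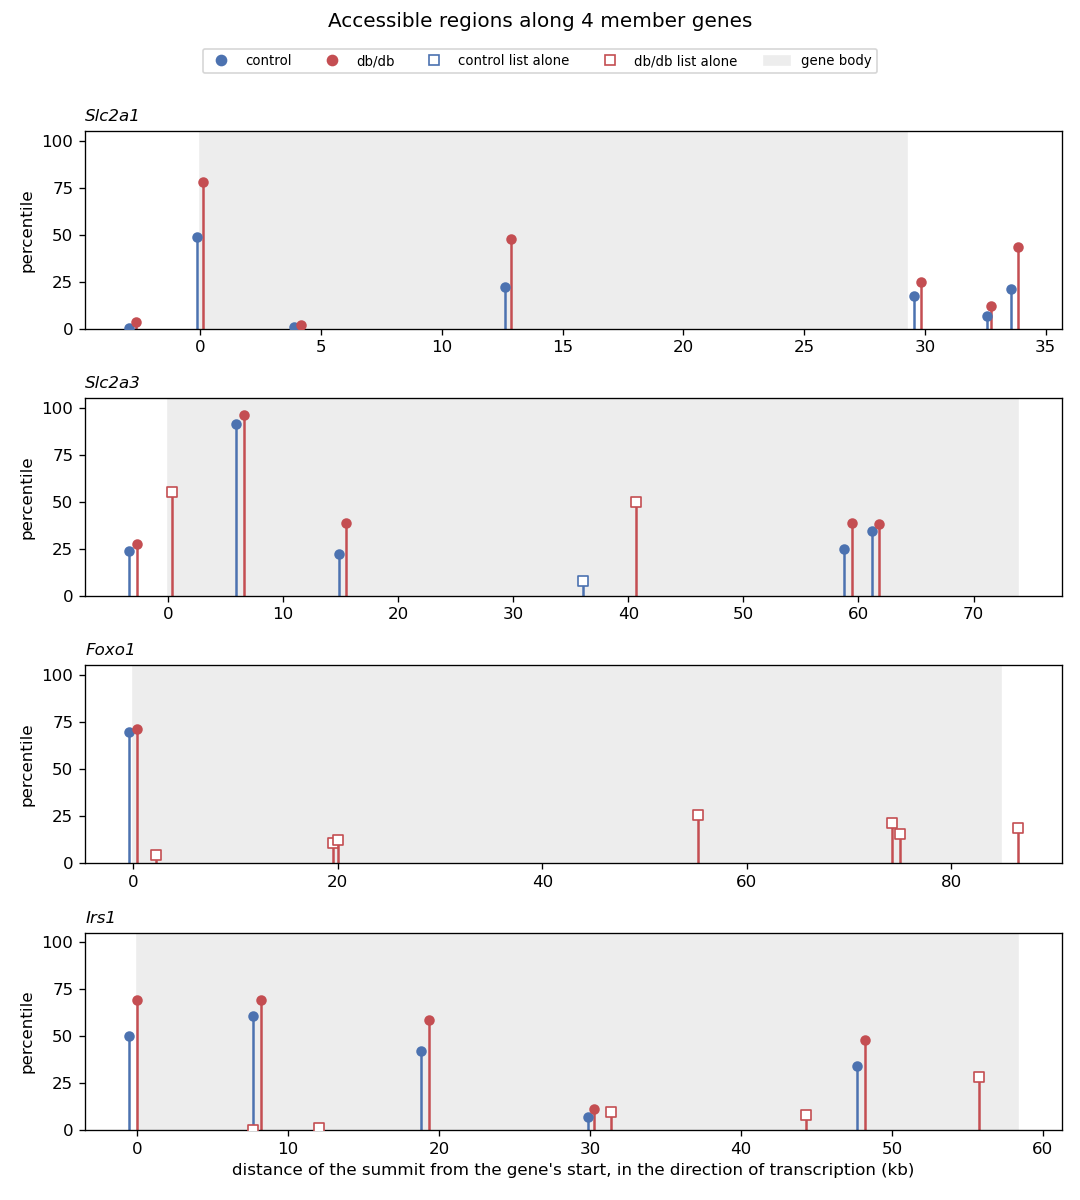
Accessible regions along Slc2a1, Slc2a3, Foxo1 and Irs1, with the distance of the summit from the gene start in kb (horizontal) and the percentile within each list (vertical); control and db/db are drawn side by side and open squares mark regions of one list alone. All 7 regions of Slc2a1 occur in both lists, whereas Foxo1 has 7 weak regions in db/db alone around a promoter at 69.4 and 71.5.

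Of the 5 strongest db/db-only regions of the members, the first lay in an intron of Pfkfb3 at chr2:11512930-11513584, with a signal of 14.3 and a percentile of 82.8. Next came an intron of Mtor at chr4:148463206-148463611 (57.1) and an intron of Pfkp, the platelet phosphofructokinase, at chr13:6623874-6624266 (56.2). The other 2 were at Slc2a3, the first start site described above (55.3) and an intron at chr6:122760988-122761450 (49.8). All others had a percentile below that.

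The 11 control-only regions were mostly weak. The strongest was intronic in Pfkfb2, at chr1:130701952-130702482, with a percentile of 67.2. It was followed by introns of Ppargc1a at chr5:51529437-51530028 (37.0), Foxo3 at chr10:42238982-42240164 (25.8) and Mtor at chr4:148493659-148494247 (17.8). Introns of Slc2a3 at chr6:122764271-122765417 and of Slc16a1 at chr3:104649345-104649746 had percentiles of 7.90 and 4.66. The other 5 were below 2. They lay at promoter windows of Slc16a3 (chr11:120948880-120949192), Pfkp (chr13:6647785-6648212) and Aldoa (chr7:126797277-126797812, also a promoter window of Fam57b) and in introns of Pkm (chr9:59678397-59678642) and Igf1r (chr7:68129963-68130224).

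The same reading was made for 94 other genes of these pathways. Of them 76 had an accessible promoter in control and 78 in db/db, with median percentiles of 79.2 and 83.1. Control-only regions were 7 of 208 (3.37%, 1.64 to 6.78), against 4.16% of all regions and an average of 7.63 for genes with equal numbers, and db/db-only regions 80 of 286 (27.97%, 23.1 to 33.4), against 31.3% and an average of 75.5. Among the largest positive differences was that of Foxo4, a forkhead factor that insulin signalling keeps out of the nucleus (52.5 in control and 79.4 in db/db), which was 19.4 points higher in shared rank. By percentile the lowest were those of Gaa (the lysosomal glucosidase that breaks down glycogen, 82.3 and 72.6), Aldoc (a brain aldolase, 79.7 and 76.8) and Ugp2 (which makes UDP-glucose for glycogen, 74.2 and 71.8), which were 20.9, 12.4 and 13.7 points lower in shared rank, and other promoters stood between Gaa and these on that scale. A promoter was accessible in db/db alone at Slc2a9, a urate and hexose transporter (18.9), and Akr1b8, an aldose reductase relative (12.7), and at 0 genes in control alone. By shared rank, 6 of 74 promoters stood at least 10 points higher and 6 at least 10 points lower, against 5.44% and 13.2% of coding genes. As in the members, the differences of single promoters lay on both sides.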

How the data were processed

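ATAC-seq libraries of Müller cells had been made with the omni-ATAC protocol and sequenced as paired 50 bp reads, and 1 peak list per genotype that the authors deposited on build mm10 was used. In the order of the narrowPeak columns, the deposited values are a score (540 to 1000), the fold enrichment at the summit (a ratio), the −log10 p-value and −log10 q-value of the authors' peak caller, and the summit position. The peak caller, its threshold, the depth and whether replicates had been pooled are not given in the sources used here, so the depth is unknown. The lists have no scaling that makes signals comparable, which is why percentiles were used. Overlapping rows on chromosomes 1 to 19, X and Y were merged, keeping the row with the highest signal. Genes and start sites came from GENCODE M21. Regions count as shared when they overlap by at least 1 bp. A difference of 10 percentile points, an arbitrary step, was counted as higher or lower. Like promoters lie within 5 points of control percentile. For genes named because their difference was among the highest or lowest, the share of like promoters is a description and not a test. Averages for equal numbers are the mean, over all other coding genes with as many regions in that list, of the regions found in that list alone, summed over the genes of a set, in place of random draws. Shares carry Wilson 95% intervals for counting error only. No test between genotypes was possible with 1 list each. Genes were named by rule: the 5 highest and 5 lowest promoter differences, control-only regions, the strongest and weakest promoter, the gene with the most regions per group, and the 5 strongest db/db-only regions; other genes were added to account for each group after their values were seen. The members, lists and strings were chosen with earlier results of these data known. The functions were tested on simulated lists. Python 3.11.15, numpy 2.4.6, pandas 2.3.3 and matplotlib 3.10.9 were used. Single results for some other genes of these pathways are not reported here.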

Additional observations from a re-analysis of the deposited data

How the results depend on the processing

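The limits are the single list per genotype, the unknown depth and peak threshold, and the longer db/db list, on which any count of db/db-only regions depends. No paired analysis was possible because only 1 list was used for either genotype. Of 108 values for the 46 members under 12 alternatives, 97 stayed within their interval, 10 points or 1.5 times the count. So did 592 of 648 for groups and other pathway genes and 497 of 544 for single promoters. A value counted in this way could still change sign, as the glycogen median did. One alternative, which counted a region only at the gene with the nearest start site, was chosen after seeing the data. With lists of equal length, db/db-only regions at members were 7.78%, the median difference of shared regions was -1.78 points, and 8 regions were at least 10 points higher and 30 lower. On shared ranks the median was -0.16, with 13 higher and 25 lower. With 20 kb to each side 5 regions were lower, and with −log10 p ranked in place of the signal 4, while the median promoter percentile was 93.0 in control and 92.1 in db/db. On that scale the difference of Slc2a1 was 4.43 points and that of Eno1 1.95. Medians of groups changed sign with equal lists (other pathway genes -1.02, glucose entry -2.75, glycolysis -1.03, glycogen -2.56, insulin signalling -2.43) and on shared ranks (glucose entry -0.13, glycogen -1.40, insulin signalling -1.05). On shared ranks 25 of 40 promoters with the same strongest region were below 0, against 9 of 46 by percentile. Of the 16 promoters at least 10 points higher, some changed sign with equal lists (Gpi1 -7.46, Pygm -8.32, Akt1 -0.73, Gsk3b -3.63, Foxo3 -9.77), on shared ranks of the control region (Slc2a3 -1.01, Gpi1 -2.70, Pygm -2.52, Akt1 -0.030, Akt2 -27.2, Foxo3 -2.59) and, for Pygm, with a promoter window of 2 kb (-2.51). Shared ranks and equal lists leave out weak db/db regions by construction.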
